A study of Mus musculus with 49 samples.

Results

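The pyramidal layer of hippocampal field CA3 was compared between rTg4510 mice, which express mutant human tau, and littermates that carried the tTA transgene alone. All arrays titled for CA3 of these genotypes were taken, 6 from rTg4510 and 5 from tTA mice, which made 11 of the 49 arrays of the series. A further 5 CA3 arrays from double-negative (DN) littermates gave reference levels and, in the statistical model, added to the estimate of the spread. All mice were females of 6.1 months from a cross of an FVB/N responder line with a tTA line of another inbred strain. rTg4510 mice held both a TRE-htau (P301L) responder transgene and the tetracycline-controlled transactivator (tTA) under the Camk2a promoter, tTA mice held the transactivator only, and DN mice held neither. Both compared groups therefore carried the transactivator, expressed in forebrain excitatory neurons, and effects of mutant tau cannot be told apart from effects of where its transgene had inserted. The array carries probes for mouse transcripts, and whether any also read the human transgene was not tested, so its level is not given.

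Tau is a microtubule-binding protein of axons, and the P301L mutation, which causes a hereditary frontotemporal dementia, makes it aggregate. CA3 pyramidal neurons receive mossy fibers from the dentate gyrus (DG) and send the Schaffer collaterals to CA1. Microglia, the resident macrophages of the brain, and astrocytes lie among these neurons and change their transcripts when neurons are injured, so a laser-captured neuron layer also carries glial RNA. Captured layers are bulk samples, in which more cells of a type and more RNA per cell cannot be told apart.

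Several subfield markers had the levels of CA3. Nectin3, an adhesion molecule, averaged 10.67, 10.47 and 10.96 in rTg4510, tTA and DN CA3 on the log2 scale of the array, against 8.57 in DN CA1 and 8.23 in DN dentate gyrus, and Bok, a Bcl-2 family member, averaged 9.66, 9.95 and 9.72, against 6.79 and 7.55. The CA1 marker Pou3f1 averaged 4.03, 4.74 and 4.07 in CA3, against 9.71 in DN CA1, and the granule cell marker Prox1 3.58, 3.22 and 3.07, against 7.98 in DN dentate gyrus. Others were less selective. The CA3 markers Il16 and Coch averaged 6.88 and 4.53 in DN CA3 against 7.12 and 4.44 in DN dentate gyrus, and the CA1 marker Wfs1 was still at 8.79 in DN CA3, against 12.20 in DN CA1. Some captures stood apart in marker lists of neighboring tissue. Dentate granule and meningeal lists averaged 6.08 and 5.37 in rTg4510 mouse4549, against 5.04 to 5.42 and 4.59 to 4.76 in the other rTg4510 mice, and the CA1 list 6.33 in tTA mouse4592, against 4.79 to 5.34 in the other tTA mice. The calls described next numbered 212 without the first of these arrays and 139 without the second, and the part of neighboring tissue in them was not tested. The difference between 3-prime and 5-prime control probe sets, a sign of RNA quality, was −0.633 ± 0.135 in rTg4510 and −0.636 ± 0.183 in tTA arrays for Actb (SD, n = 6 and 5, 2-sided exact permutation p = 0.978 over 462 splits), and 2.80 ± 0.131 and 2.64 ± 0.153 for Gapdh (exact permutation p = 0.0909, 0.182 after adjustment over both). Within-group SDs of a probe set had a median of 0.212 in rTg4510, 0.214 in tTA and 0.149 in DN mice.

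In CA3, several microglial and complement transcripts, the astrocyte gene Gfap and the transcription factor gene Jun were higher in rTg4510 than in tTA mice. Ribosomal protein genes were lower in rTg4510 than in tTA mice. Their list means were lower still in DN arrays, at 9.92 to 10.08 against 10.15 to 10.51 in rTg4510 arrays. The complement, Gfap and ribosomal differences reached an adjusted p below 0.05 only with the DN arrays in the fit, as described next. Of 22626 probe sets, 256 (1.13%) were called at a Benjamini-Hochberg adjusted p below 0.05 in limma, 145 higher (0.641%) and 111 lower (0.491%) in rTg4510 than in tTA mice. Most changes were modest. The called rises had a median of 0.67 and the called falls of −0.56 on the log2 scale, where 1 is a doubling, and only 22 rises and 3 falls reached 2-fold. The median difference over all probe sets was −0.02. Called probe sets with a single gene symbol named 104 genes that rose and 83 that fell, with 0 in both sets, and the other 50 called probe sets are not named here. All rTg4510 arrays lay apart from all tTA arrays in 198 of the 256, and in 429 (1.9%) of all probe sets.

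The size of this set depended on whether the DN arrays entered the fit. A fit of the rTg4510 and tTA arrays alone called 25 probe sets, 14 higher and 11 lower, and all 25 were among the 256. They named 19 genes, chosen here by that fit and not by their size: Mpeg1, Lyz2, Jun, Fam120b, Acad11, Zfp207, Zmpste24, Pcdh20 and Uhrf1bp1l rose, and Tmem114, Mycl, Mxd4, Tmcc2, Polr2f, Fis1, Abhd8, Ccdc106, Rnaseh2c and Fjx1 fell. Complement genes, Gfap and ribosomal protein genes were not among these 19, and Mpeg1 was the only microglial marker. In 16 fits that each left out 1 array, 68 probe sets (38 higher and 30 lower, with 51 named genes) were called every time.

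**Figure D1:**
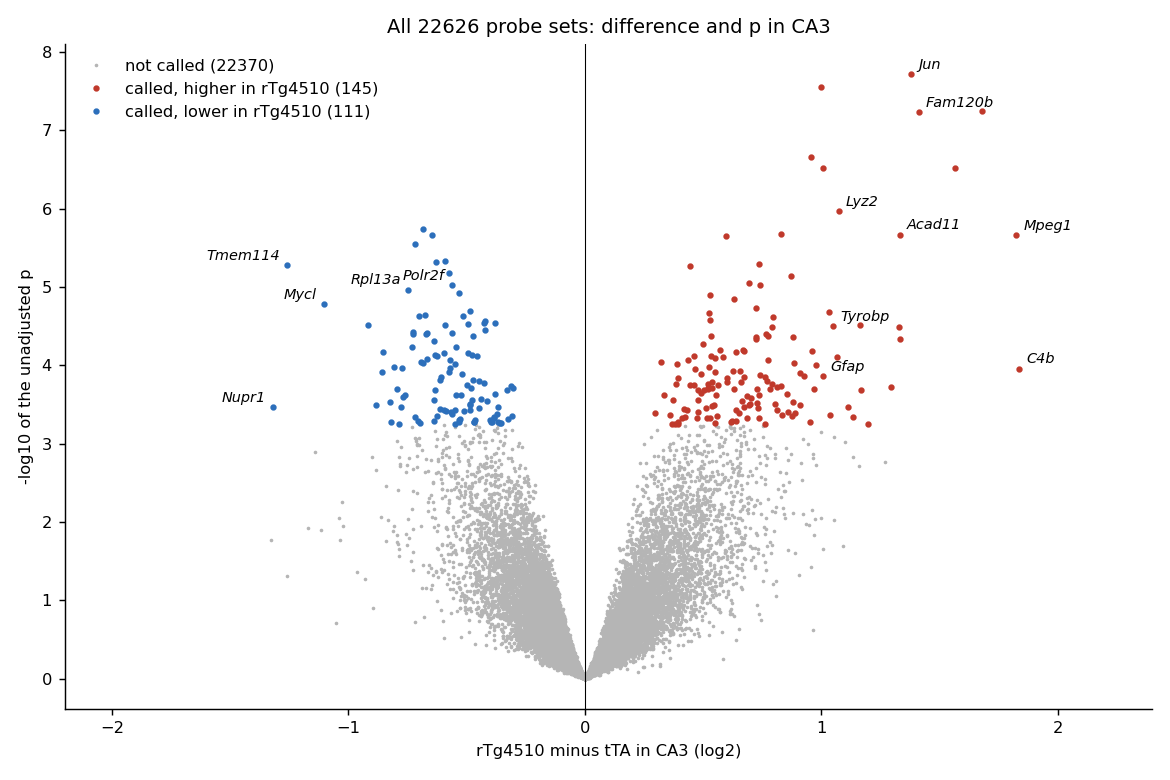
Each point is 1 of the 22626 probe sets, with the rTg4510 minus tTA difference in CA3 (log2) on the x axis and the negative log10 of the unadjusted limma p on the y axis. Red points are the 145 called higher and blue points the 111 called lower in rTg4510 mice, grey points were not called. C4b and Mpeg1 lie farthest to the right among the labelled genes, and Nupr1 and Tmem114 farthest to the left.

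Several myeloid genes rose. Over 11807 genes, each taken at its brightest probe set, 0.618% were called higher, 44.1% had a positive difference and the median was −0.02. Of 27 measured microglial markers, 5 were called higher and 0 lower, 21 had a positive difference and the median was 0.30. The called ones were Mpeg1, C1qa, Tyrobp, Ctss and Fcgr3. The mean level of the 27 markers ran from 5.35 to 5.68 in rTg4510 arrays, from 4.83 to 5.39 in tTA arrays and from 4.45 to 4.69 in DN arrays. For 15 of the 27 a group mean lay below 5.01, the median over probe sets, and such genes are called dim here.

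Mpeg1, which encodes the macrophage pore-forming protein perforin-2, had the second largest rise. Its lowest, median and highest log2 levels were 5.94, 6.40 and 6.88 in rTg4510 mice, against 3.68, 4.23, 5.23, 4.71 and 5.17 in tTA animals mouse4570, mouse4580, mouse4592, mouse4626 and mouse4637, and 3.55 to 4.54 in DN mice. Every rTg4510 array lay above every tTA array, and the tTA and DN arrays overlapped. The difference of 1.82 ± 0.26 (SE), or 3.54-fold, had a limma adjusted p of 0.00363, and of 0.0263 without the DN arrays.

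Tyrobp, the adaptor through which Trem2 and related myeloid receptors signal, had levels of 8.67, 8.94 and 9.29 (lowest, median, highest) in rTg4510 mice, against 7.75, 7.45, 8.48, 7.82 and 8.10 in the tTA mice in the same order and 6.07 to 6.88 in DN mice. The 3 genotypes did not overlap. Its difference was 1.05 ± 0.19 (limma adjusted p = 0.0148, 0.0501 without the DN arrays). Trem2 itself was dim and was not called, at 3.77 ± 0.09 in rTg4510 and 3.85 ± 0.17 in tTA mice (SD, limma adjusted p = 0.776).

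Ctss encodes the lysosomal protease cathepsin S of antigen-presenting cells. It measured 10.01, 10.36 and 10.75 in rTg4510 mice, against 9.37, 8.59, 9.73, 9.34 and 9.61 in tTA mice and 8.22 to 8.71 in DN mice. The rTg4510 arrays were all the highest, and the tTA mouse4580 fell within the DN range. The difference was 1.03 ± 0.18 (limma adjusted p = 0.0142, 0.0646 without the DN arrays).

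C1qa, a chain of the complement initiator C1q, rose by 1.07 ± 0.20 (limma adjusted p = 0.0215, 0.101 without the DN arrays). Its levels were 4.71 to 6.21 in rTg4510 mice and 3.86 to 4.52 in tTA mice. C1qb and C1qc, the partner chains, had differences of 0.80 and 0.98 and were not called (limma adjusted p = 0.0781 and 0.0863). Fcgr3, an IgG receptor, rose by 0.93 ± 0.19 (limma adjusted p = 0.0278, 0.0588 without the DN arrays). It measured 5.40 to 6.02 in rTg4510 against 4.44 to 5.38 in tTA mice. Neither group of arrays overlapped the other for C1qa or Fcgr3.

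Among 33 measured genes of activated myeloid cells, only Lyz2 was called (1 higher, 0 lower), although 28 differences were positive, with a median of 0.18. Lyz2, the lysozyme of macrophages, measured 4.19, 4.59 and 4.89 in rTg4510 mice, against 3.0, 3.80, 3.44, 3.74 and 3.55 in tTA mice and 3.18 to 3.54 in DN mice. Its rTg4510 and tTA arrays did not overlap, its levels were dim, and the difference of 1.07 ± 0.14 was called with and without the DN arrays (limma adjusted p = 0.00302 and 0.0263) but not in a model of all 49 arrays (0.119). Its probe set may also read closely related lysozyme transcripts.

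The largest rise of all was that of C4b, a component of the classical complement pathway. Its levels were 5.23, 6.54 and 7.33 in rTg4510 mice, against 3.46, 4.89, 4.53, 4.77 and 5.41 in tTA mice and 3.17 to 4.18 in DN mice. The lowest rTg4510 array lay below the highest tTA array. The difference was 1.83 ± 0.36, or 3.57-fold (limma adjusted p = 0.0247, 0.0966 without the DN arrays). Of 19 measured complement genes, 3 were called higher and 0 lower, namely C4b, C1qa and the anaphylatoxin receptor gene C3ar1. C3ar1 rose by 0.87 ± 0.20 (limma adjusted p = 0.0472, 0.151 without the DN arrays), and the median over the list was 0.15.

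DN mice stood at the other side of the tTA mice for these genes. In all 8 genes called in the microglial, activated myeloid and complement lists, out of 74 measured, the tTA mean was above the DN mean, so that the levels ran from rTg4510 down to tTA and then to DN. Over the lists as a whole the tTA mean was above the DN mean for 26 of 27, 29 of 33 and 16 of 19 genes. Of the 8 called genes 6 were dim, namely Mpeg1, C1qa, Fcgr3, Lyz2, C4b and C3ar1. The myeloid transcription factor gene Irf8 was called by its dimmer probe set (0.49 ± 0.10, limma adjusted p = 0.0271) and not by its brighter one (0.12, 0.882).

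**Figure D2:**
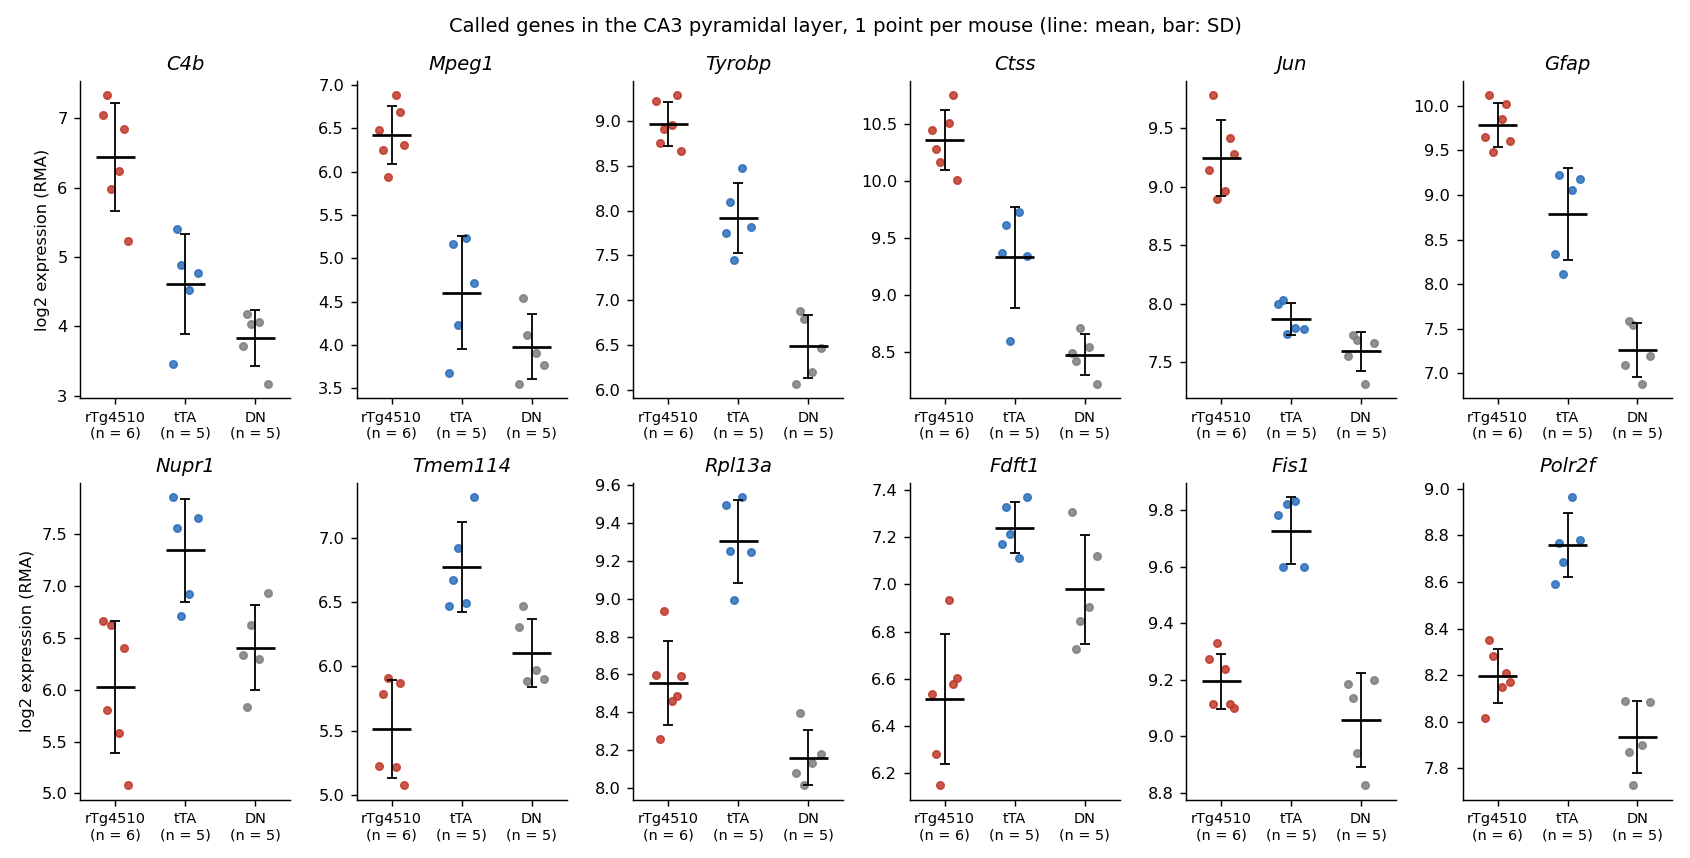
Log2 expression of 12 called genes in CA3, with 1 point per mouse, the group mean as a line and the SD as a bar, for rTg4510 (n = 6), tTA (n = 5) and DN mice (n = 5). Each gene has its own y axis, which does not start at 0. C4b, Mpeg1, Tyrobp, Ctss, Jun and Gfap are highest in rTg4510 mice, and Rpl13a, Fis1 and Polr2f are highest in tTA mice with rTg4510 arrays nearer to DN.

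Gfap, the intermediate filament of astrocytes, rose on both of its probe sets. The brighter one measured 9.49, 9.75 and 10.12 in rTg4510 mice, against 8.34, 8.11, 9.05, 9.18 and 9.22 in tTA mice and 6.89 to 7.59 in DN mice, and none of these groups overlapped. Its difference was 1.01 ± 0.20 and that of the other probe set 1.11 ± 0.25 (limma adjusted p = 0.0279 and 0.0416, and 0.0857 and 0.125 without the DN arrays). Gfap was the only 1 of 17 measured astrocyte markers to be called. The list had 10 positive differences and a median of 0.02, which turned to −0.01 after a second quantile normalization, and its mean level was 7.85 to 8.12 in rTg4510, 7.56 to 8.05 in tTA and 7.03 to 7.37 in DN arrays. Of 21 reactive astrocyte genes, Osmr, the oncostatin M receptor, rose by 0.97 ± 0.20 (limma adjusted p = 0.0311, 0.123 without the DN arrays). Vim and Serpina3n had differences of 0.46 and −0.16 and were not called (0.493 and 0.611).

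Markers of other cells of the tissue were not called by limma in either direction. Calls numbered 0 of 15 for oligodendrocytes, 0 of 19 for endothelial and mural cells, 0 of 19 for inhibitory interneurons and 0 of 13 for meninges and fibroblasts, with 3, 3, 2 and 0 genes at an unadjusted p below 0.05, which 14.8% of all probe sets reached. They numbered 0 of 14 for CA3, 0 of 11 for dentate granule and 0 of 4 for CA1 neurons, with 5, 2 and 1. Gad2, which makes GABA in interneurons, was 8.38 ± 0.34 in rTg4510 and 8.17 ± 0.20 in tTA mice (limma adjusted p = 0.605), and the neuropeptide gene Npy 6.31 ± 0.57 and 5.99 ± 0.30 (0.539). The CA3 list had a median difference of 0.23, led by Rspo2, a Wnt signaling enhancer, at 0.75 (limma adjusted p = 0.0506). Lists of 20 presynaptic, 27 postsynaptic and 8 GABA receptor genes also held 0 calls, with 2, 8 and 4 genes at an unadjusted p below 0.05 and medians of 0.02, −0.07 and 0.34, the first of which changed sign under renormalization. In 22 genes of tau kinases and phosphatases, 39 of microtubules and axonal transport and 20 orthologues of Alzheimer risk genes limma called 0, with 4, 5 and 2 at an unadjusted p below 0.05 and medians of −0.03, 0.01 and 0.06.

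Jun, a subunit of the AP-1 transcription factor that neurons induce after axonal injury and stress, had the smallest p among named genes. On its brighter probe set it measured 8.90, 9.21 and 9.78 in rTg4510 mice, against 7.99, 7.74, 7.80, 7.78 and 8.03 in tTA mice and 7.32 to 7.73 in DN mice. The lowest rTg4510 array was above the highest tTA array, and the tTA arrays lay close together. The difference was 1.38 ± 0.14, or 2.60-fold (limma adjusted p = 3.12e-04, 0.0116 without the DN arrays), and the second probe set gave 1.33 (0.0148).

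The other activity-regulated and injury genes were not called. Of 29 immediate early genes, Jun alone was called, and the median was 0.05. With Jun included, 6 of them (4 higher, 2 lower) had an unadjusted limma p below 0.05, which 14.8% of all probe sets reached. Fos and Egr1, which neuronal activity induces, had differences of 0.36 and 0.39 (limma adjusted p = 0.649 and 0.388), and Arc had −0.34 (0.695), with rTg4510 arrays spread from 4.04 to 6.21 around tTA arrays of 4.97 to 5.87. In a list of 27 genes of Jun kinase signaling and axonal injury Jun was again the only one called. With Jun included, 7 of these (6 higher, 1 lower) had an unadjusted limma p below 0.05. Atf3, which injured neurons express with Jun, had 0.36 (0.297), and Dusp16, a phosphatase of Jun kinases, had 1.10 (0.0638).

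Promoter sequence is shown for 2 of the genes that rose, Jun as the named gene with the smallest p and Fcgr3 as a myeloid gene whose window held a myeloid motif. Both runs are the 130 bases before the transcription start in RefSeq on mouse build GRCm38.p6, on the strand of the gene, which is the minus strand for both: chr4:95052223-95052352 for Jun and chr1:171059404-171059533 for Fcgr3. Capitals in Jun mark TGACATCA, known in the human JUN promoter as an element bound by Jun dimers and searched for after the values were seen. Capitals in Fcgr3 mark the reverse complement of GAGGAA, the core bound by the myeloid factor PU.1.
Jun: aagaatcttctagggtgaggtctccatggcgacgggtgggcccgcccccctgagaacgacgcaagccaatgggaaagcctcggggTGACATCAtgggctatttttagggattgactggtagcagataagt
Fcgr3: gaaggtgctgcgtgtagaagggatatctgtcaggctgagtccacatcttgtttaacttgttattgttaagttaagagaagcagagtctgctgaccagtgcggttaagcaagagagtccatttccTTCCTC

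The Jun element began 45 bases before the start and occurred in 2.93% of all promoter windows of 250 bases. Windows were found for 155 of the 187 called genes. GAGGAA, on either strand, was in 29.9% of 107 windows of genes that rose, in 23.1% of 91 windows of genes that fell and in 23.3% of all 32851 windows. Of 9 myeloid and complement genes with a called rise 6 had a window, and in 2 of them, Ctss and Fcgr3, it held this core. The AP-1 letters TGANTCA were in 4.67%, 6.59% and 6.75% of the same sets of windows, the CRE letters TGACGTCA in 4.67%, 4.4% and 1.55%, and the E-box CACGTG in 6.54%, 7.69% and 6.02%. Median GC content was 61.6%, 60.8% and 52.4%, and matches of different motifs were counted separately even where they overlapped. A match of letters is not a measured binding site.

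Ribosomal protein genes held more called falls than any other list examined. Of 63 measured genes of the cytosolic ribosome 7 were called lower and 0 higher, against 0.542% of all genes called lower, and 55 of 63 differences were negative, with a median of −0.16. They were Rpl13a, Rps2, Rplp0, Rpl9, Rpl13, Rpl29 and Rpl37a, with differences from −0.75 to −0.33, and in none of the 7 did the rTg4510 and tTA arrays overlap. Counted by probe set, 8 of 121 were called lower and 0 higher, and many such probe sets may also read processed pseudogenes. The mean level of the list ran from 10.15 to 10.51 in rTg4510 arrays, from 10.37 to 10.63 in tTA arrays and from 9.92 to 10.08 in DN arrays, so the list means of the compared groups overlapped.

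Rpl13a measured 8.26, 8.54 and 8.93 in rTg4510 mice, against 9.49, 8.99, 9.54, 9.24 and 9.25 in tTA mice and 8.02 to 8.40 in DN mice. All tTA arrays lay above the other genotypes. The difference was −0.75 ± 0.12 (limma adjusted p = 0.00946, 0.0547 without the DN arrays). Rps2 gave −0.57 and −0.43 on 2 probe sets (limma adjusted p = 0.00708 and 0.0148) and −0.25 on the other (0.103). All 7 called genes had DN means below the rTg4510 means, and 61 of the 63 had tTA means above DN means.

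Mitochondrial genes contributed single calls. Atp5e, a subunit of ATP synthase, fell by 0.39 (limma adjusted p = 0.0494) as the only 1 of 70 oxidative phosphorylation genes called by the brightest probe set, and the list median was −0.05. Chosen after their values were seen, Fis1, an adaptor of mitochondrial fission, measured 9.10, 9.18 and 9.33 in rTg4510 mice, against 9.78, 9.82, 9.83, 9.60 and 9.60 in tTA mice and 8.83 to 9.20 in DN mice, and the deacetylase gene Sirt3 measured 7.28 to 7.85 in rTg4510 and 8.04 to 8.64 in tTA mice. Neither gene overlapped between rTg4510 and tTA. Fis1 had a difference of −0.53 (limma adjusted p = 0.00997) and Sirt3 of −0.68 (0.0230). Gpx4, which reduces lipid peroxides, fell by 0.61 on 1 probe set (0.0425), and its brighter probe set had −0.49 (0.0866). Cox8a, a cytochrome c oxidase subunit, likewise fell on its dimmer probe set only (−0.42, 0.0159), at 7.87 to 8.11 in rTg4510 and 8.28 to 8.54 in tTA mice, and its brighter one had −0.37 (0.0556).

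Cholesterol synthesis genes lay lower almost throughout the list. Fdft1, squalene synthase, was the only 1 of 16 that was called, but only 1 difference was positive and the median was −0.30. It measured 6.15, 6.56 and 6.93 in rTg4510 mice, against 7.17, 7.22, 7.11, 7.37 and 7.33 in tTA mice and 6.73 to 7.30 in DN mice, a difference of −0.73 ± 0.13 (limma adjusted p = 0.0161, 0.0563 without the DN arrays). The rTg4510 and tTA arrays did not overlap, and for this gene DN lay with tTA. Idi1, Cyp51 and Fdps, earlier and later enzymes of the pathway, had −0.45, −0.59 and −0.59 and were not called (0.0581, 0.0679 and 0.0859). The mean of the 16 genes ran from 6.25 to 6.65 in rTg4510 arrays, from 6.69 to 6.80 in tTA arrays and from 6.57 to 6.78 in DN arrays.

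Lysosomal genes lay the other way. Of 37 measured, 33 had positive differences and the median was 0.17, with Ctss as the single call. The hydrolase genes Man2b1, Ctsh and Tpp1 had 0.92, 0.77 and 0.65 and were not called (limma adjusted p = 0.103, 0.0664 and 0.0971). List means were 7.09 to 7.36 in rTg4510, 6.91 to 7.12 in tTA and 6.97 to 7.07 in DN arrays, so that the tTA range held the DN range, and most rTg4510 arrays were above both.

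**Figure D3:**
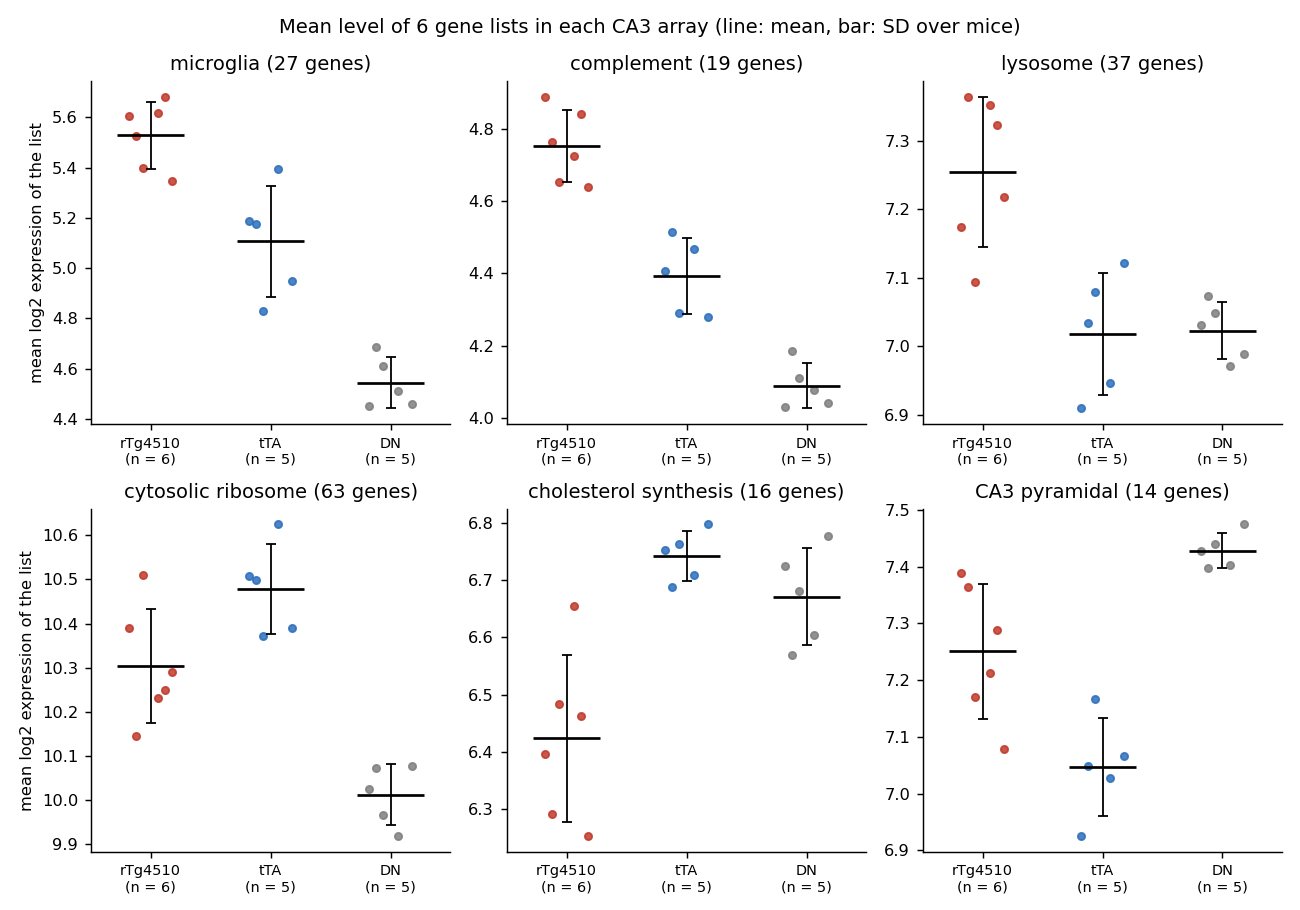
Mean log2 level of 6 gene lists in each CA3 array, with 1 point per mouse, the group mean as a line and the SD as a bar, for rTg4510 (n = 6), tTA (n = 5) and DN mice (n = 5). The y axes differ and do not start at 0. Microglial and complement lists step down from rTg4510 to tTA to DN, the lysosomal list is highest in rTg4510, and the ribosomal list is highest in tTA mice.

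Stress pathways gave isolated calls. Nupr1, a small nuclear protein that cells induce under stress, showed the largest fall: 5.08, 6.11 and 6.66 in rTg4510 mice, against 7.86, 6.72, 6.93, 7.66 and 7.57 in tTA mice and 5.83 to 6.94 in DN mice. The highest rTg4510 array was just under the lowest tTA array. The difference of −1.32 ± 0.29 had a limma adjusted p of 0.0416 (0.121 without the DN arrays), and the second probe set gave −0.90 (0.0777). It was the only 1 of 29 integrated stress response genes called, and Ddit3 and Chac1, induced in that response, had 0.32 and 0.27 (0.303 and 0.513). Hsp90aa1, a cytosolic chaperone, rose by 0.46 (limma adjusted p = 0.0214) as 1 of 33 unfolded protein and heat shock genes, and the proteasome subunit gene Psma4 rose by 0.73 (0.0419) as 1 of 35. Other lists held 1 call each by the brightest probe set. They were Eci1 of 31 fatty acid oxidation genes (−0.57) and the GDNF receptor gene Gfra1 of 31 neurotrophin and growth factor genes (0.89). Sox4 was called among 17 neurogenesis genes (0.64). Their limma adjusted p-values were 0.0443, 0.0448 and 0.0494.

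Several of the largest rises lay outside the list counts. Fam120b, a coactivator of nuclear receptors, measured 5.93, 6.18 and 6.57 in rTg4510 mice, against 4.68, 4.54, 4.98, 5.28 and 4.56 in tTA mice and 5.57 to 5.93 in DN mice. Groups did not overlap, and the tTA arrays were the ones that stood apart. The difference was 1.41 ± 0.15 (limma adjusted p = 3.33e-04), while a second Fam120b probe set had 0.00 (0.999).

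Acad11, an acyl-CoA dehydrogenase, measured 4.46, 4.79 and 5.35 in rTg4510 mice, against 2.84, 3.81, 3.57, 3.82 and 3.38 in tTA mice and 4.06 to 4.61 in DN mice. Here too the tTA arrays were below both other genotypes. The difference was 1.33 ± 0.19 (limma adjusted p = 0.00363), and the other probe set had 0.62 (0.242). Acad11 belongs to the fatty acid oxidation list, which read the other, brighter probe set and so did not count this rise. Rapgef6, an exchange factor for Rap GTPases, rose by 1.16 ± 0.20, with 4.57 to 5.50 in rTg4510 and 3.33 to 4.30 in tTA mice (0.0148).

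The histone H3 gene H3c15, of a family with near-identical copies, measured 4.81 to 6.18 in rTg4510 mice, against 3.79 to 4.63 in tTA and 3.76 to 4.84 in DN mice, a rise of 1.17 ± 0.25 (limma adjusted p = 0.0313). Luc7l2, a splicing factor, rose by 1.30 ± 0.27 on 1 of 5 probe sets (0.0311), and the others had −0.12 to 0.58. Vcan, a matrix proteoglycan, rose by 1.13 ± 0.26 on 1 of 3 (0.0477), and Cfap97, a cilia-associated protein, by 1.03 ± 0.24 (0.0463). Without the DN arrays these 4 genes and Rapgef6 were not called (limma adjusted p = 0.0547 to 0.145). The called probe sets of Fam120b, Acad11, Rapgef6, H3c15, Vcan and Cfap97 were dim.

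Mapt, which encodes tau, was read by 3 probe sets that did not go together. Whether any of them also read the human transgene was not tested. One of them measured 5.38, 6.24 and 7.21 in rTg4510 mice, against 5.56, 5.02, 4.75, 5.42 and 4.29 in tTA mice and 5.88 to 6.52 in DN mice. The rTg4510 and tTA arrays overlapped, and the rTg4510 and DN means were 6.20 and 6.21. Its difference of 1.20 ± 0.28 was called at the edge of the threshold (limma adjusted p = 0.0499, 0.15 without the DN arrays), while the brightest probe set had −0.04 (0.945) and the third −0.42 (0.375). The transactivator's driver gene Camk2a was 11.59 ± 0.24 in rTg4510 and 11.89 ± 0.09 in tTA mice (0.212), and Fgf14, a regulator of sodium channels, 8.58 ± 0.16 and 8.80 ± 0.12 (0.261).

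After Nupr1, the largest falls were those of Tmem114, a membrane protein, and Mycl, a member of the Myc family. Tmem114 measured 5.07, 5.50 and 5.91 in rTg4510 mice, against 6.47, 6.92, 6.49, 7.31 and 6.67 in tTA mice and 5.88 to 6.47 in DN mice, a difference of −1.26 ± 0.19 (limma adjusted p = 0.00615, 0.0404 without the DN arrays). Its rTg4510 and tTA arrays did not overlap, and DN lay between. Mycl fell by 1.10 ± 0.18 on a dim probe set (0.0125), at 2.79 to 3.67 in rTg4510 and 4.03 to 4.69 in tTA mice, while its brighter probe sets had 0.36 and −0.46 and were not called (0.549 and 0.354). Mxd4, which encodes another partner of Max, fell by 0.78 ± 0.17 (0.0416) on a dim probe set that was not its brightest. That probe set had a limma adjusted p of 0.0828 without the DN arrays, so the call of Mxd4 in that fit was on another probe set.

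The remaining large falls ranged from −0.92 to −0.76. Neurl1a, a ubiquitin ligase of neurons, fell by 0.92 ± 0.16 on 1 of 4 probe sets (limma adjusted p = 0.0148). Atg101, a subunit of the kinase complex that starts autophagy, measured 6.15 to 6.87 in rTg4510 and 7.13 to 7.58 in tTA mice (−0.88 ± 0.19, 0.0403). Tmcc2, an endoplasmic reticulum protein, measured 7.06 to 7.61 and 8.05 to 8.26 (−0.86 ± 0.17, 0.0262) and was also called without the DN arrays (0.0116). Hdac5, a histone deacetylase that shuttles with neuronal activity, fell by 0.81 ± 0.16 (0.0246), Dohh, which modifies the translation factor eIF5A, by 0.77 ± 0.17 (0.0355), and Rab4a, a GTPase of endosome recycling, by 0.77 ± 0.15 (0.0246). Ints5, Narf, Klf16, Zdhhc7 and Sirt7 completed the 15 largest falls, with differences between −0.82 and −0.76. For Tmcc2, Rab4a, Ints5 and Narf the called probe set was not the brightest of the gene. DN means of Neurl1a, Atg101, Hdac5 and Dohh were 5.35, 6.39, 7.15 and 6.99, beside rTg4510 means of 5.32, 6.48, 7.17 and 7.12. For Tmcc2, Rab4a, Ints5, Klf16, Zdhhc7 and Sirt7 the DN mean lay between the rTg4510 and tTA means. Narf had 5.70 in both DN and tTA mice, against 4.88 in rTg4510 mice.

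Some further calls are named as single genes, picked after their values were seen, with no test of their roles. They were in no list except Cacna2d1, of the sodium, calcium and HCN channel list, and Unc5c, of the axon guidance list. Those lists read a brighter probe set of each gene and held 0 calls. The splicing genes Sf3b1 (0.72), Aqr (0.80), U2surp (0.49) and Son (0.52) rose and Lsm7 (−0.64) fell. The ubiquitin genes Usp9x (0.53), Ube3a (0.60) and Cand1 (0.74) rose, while Rnf187 (−0.48) and Rnf220 (−0.55) fell. Lyst (0.88), Pikfyve (0.86) and Ap3m1 (0.78), of endosomal and lysosomal trafficking, and Pcdh20 (0.74), Cacna2d1 (0.67), Cntnap2 (0.77) and Unc5c (0.81), of the neuronal surface, rose. Ogt, which attaches O-GlcNAc to proteins, rose on 2 of its 4 probe sets (0.95 and 0.70). Pcdh20, a protocadherin, measured 8.14 to 8.75 in rTg4510 mice, against 7.60 to 7.92 in tTA and 8.36 to 8.76 in DN mice, so its tTA arrays alone were low. Sf3b1, a core splicing factor, measured 7.52 to 8.23 on its most changed probe set in rTg4510 mice, against 6.89 to 7.12 in tTA and 7.19 to 7.86 in DN mice. Probe sets of 1 gene often differed: 110 of the 187 called genes were also read by a probe set outside the called ones, and in 18 of these genes it pointed the other way.

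DN levels differed in place from gene to gene. In 97 of the 145 called rises the rTg4510 mean was above both the tTA and DN means, and in 59 of the 111 called falls it was below both. Of the 145 called rises, 126 had a tTA mean below the DN mean, and in 99 the rTg4510 mean was nearer to DN than to tTA. Of the 111 called falls, 106 had a tTA mean above the DN mean and 89 an rTg4510 mean nearer to DN. Over all probe sets the tTA mean was below DN in 44.7%, and rTg4510 was nearer to DN in 61.2%. Both differences use the same 5 tTA arrays, so they are not independent of each other, a gene with low or high tTA arrays counts in both, and nothing is read from these shares. All rTg4510 arrays lay above all tTA and DN arrays in 22 of the rises and below them in 9 of the falls. A call already set the rTg4510 mean apart from the tTA mean, which is part of this condition. No share over all probe sets was counted for it, nor for means beyond both groups (97 and 59). Nothing is read from these counts.

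The same comparison in the other subfields of these mice showed where CA3 differed. A model of all 49 arrays took the mouse as a random replicate block. Of 22626 probe sets, rTg4510 against tTA gave 366 calls in CA3, 3017 in CA1 and 704 in DG. Of the 256 calls from the fit of the 16 CA3 arrays alone, this model called 115 in CA1 (44.9%, and 3.81% of the CA1 calls). In DG it called 92 of them (35.9%, and 13.1% of the DG calls). CA1 had many more calls than DG over all probe sets, and the subfields share mice, so these overlaps are not ranked. Nearly all subfields came from the same mice, but rTg4510 mouse4621 had no CA1 array and DN mouse4806 no CA3 array. The rTg4510 minus tTA difference itself differed between CA3 and CA1 in 878 probe sets (3.88%), with 382 higher and 496 lower in CA3, and between CA3 and DG in 2 (0.00884%), which were those of H3c15 and Jun.

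Several glial genes rose less in CA3 than in CA1. C4b differed by 1.83 in CA3 and 4.16 in CA1, an interaction of −2.32 ± 0.49 (limma adjusted p = 0.00453), and the brighter Gfap probe set by 1.01 and 2.54 (−1.53, 0.00335). The median of the microglial list was 0.30 in CA3, 0.88 in CA1 and −0.02 in DG. The interaction was called lower in CA3 for 4 of its 27 genes, for 7 of 17 astrocyte, 9 of 37 lysosomal, 5 of 19 interneuron and 8 of 33 activated myeloid genes, and called higher for 0 of them, and it was called lower for 4 and higher for 1 of 19 complement genes. Mpeg1 and Tyrobp had 1.82 and 1.05 in CA3 against 2.27 and 1.95 in CA1, interactions that were not called (0.58 and 0.0823). Gad2, with 0.21 in CA3 and 1.24 in CA1, gave −1.03 (0.0178).

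Nupr1 moved in opposite directions. It fell by 1.32 in CA3 (adjusted p = 0.0502 in the model of all 49 arrays) and rose by 1.29 in CA1 (0.0178), an interaction of −2.61 ± 0.50 (limma adjusted p = 0.00211), and its difference was 0.24 in DG. Igf2, a growth factor of meninges and vessels, the prostaglandin synthase gene Ptgds and the smooth muscle gene Myl9 had differences of −0.68, −0.41 and −0.63 in CA3 and of 1.65, 1.86 and 1.64 in CA1, with interactions of −2.33, −2.27 and −2.27 (0.0190, 0.0110 and 0.0107). Their CA3 differences were not called. The list of 13 meningeal and fibroblast markers had a median of −0.10 in CA3 and 0.54 in CA1, and 6 interactions were called lower. The part of such cells in the captures was not tested.

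Among other genes, differences between subfields ran in either direction. Jun rose by 1.38 in CA3 and 1.40 in CA1 (interaction −0.02 ± 0.23, limma adjusted p = 0.982) and had 0.18 in DG, with an interaction against DG of 1.20 (0.0441). H3c15 had 1.17 in CA3 against −0.18 in CA1 and −0.72 in DG (interactions 1.35 and 1.89, 0.0275 and 0.0441). Fam120b had 1.41 in CA3 and 0.14 in CA1 (1.27 ± 0.32, 0.0165, and 0.132 against DG), and the called Mapt probe set had 1.20 and −0.15 (1.35, 0.0455), with 1.05 in DG. Tmem114 had −1.26 in CA3, −0.06 in CA1 and −0.97 in DG, an interaction against CA1 of −1.20 (0.00203), and Mycl had −1.10 and −0.19 in CA3 and CA1 (−0.91, 0.0254). Pip5k1a, a phosphoinositide kinase, was not called in CA3 (0.84, 0.149) but had −1.57 in CA1, an interaction of 2.41 (0.00167). Acad11 and Rapgef6 gave no called interaction (0.219 and 0.104 against CA1, 0.432 and 0.222 against DG). The interaction with CA1 was called in 38 of the 256 CA3 calls, of which 19 rises were higher and 12 falls lower in CA3 than in CA1, while 6 rises were lower and 1 fall was higher. Neurl1a, Hdac5 and Dohh had differences of −0.92, −0.81 and −0.77 in CA3 and of −1.18, −0.82 and −0.95 in CA1, and none of these interactions was called (0.26 ± 0.29, 0.01 ± 0.29 and 0.18 ± 0.24, limma adjusted p = 0.71, 0.992 and 0.763).

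**Figure D4:**
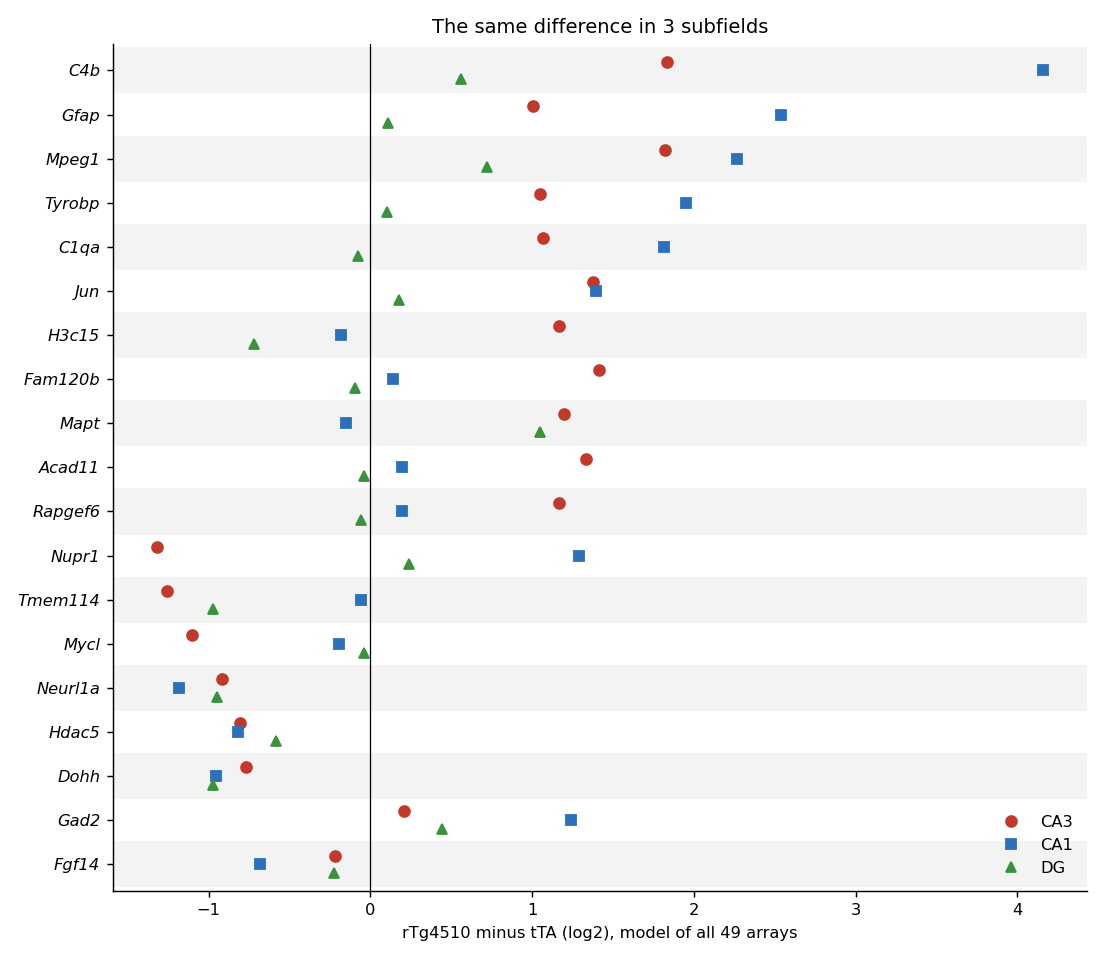
The rTg4510 minus tTA difference (log2, x axis) of 19 named genes in CA3 (circles), CA1 (squares) and DG (triangles), from 1 model of all 49 arrays. C4b and Gfap lie farther right in CA1 than in CA3, Jun is at 1.38 in CA3 and 1.40 in CA1, Nupr1 is on opposite sides of 0, and Fam120b is at 1.41 in CA3 and 0.14 in CA1.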

How the data were processed

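RNA of laser-captured cell layers had been amplified and read on HT-MG-430A arrays (Affymetrix), 1 per sample. The authors deposited log2 values made with RMA, per the submitters' processing notes, which forces arrays onto a common distribution and understates changes of dim probe sets. Although anti-log values are named in the methods, the range of 1.944 to 13.826 is a log scale, and base 2 keeps the highest value (14522) below the scanner's 65535. Precision is set by the number of arrays, which have no read depth. Of 22716 probe sets, 90 controls were left out. Of the others, 18003 had 1 gene symbol, 287 several, and 4336 were not listed and stayed unnamed. Some items are not reported here. Values were fitted in R 4.3.3 with limma 3.58.1: genotype means over the 16 CA3 arrays, contrast rTg4510 minus tTA, Benjamini-Hochberg adjustment over all probe sets, calls below 0.05, no minimum fold. Interactions used all 49 arrays with the mouse as a random block (within-mouse correlation 0.117). Since the mouse number names the animal, it pairs the arrays. Lists used the brightest probe set of each gene. Named genes were the 15 largest called rises and falls with 1 symbol, called list members or leading uncalled ones, the largest interactions and some fixed genes. Members and lists were chosen with earlier results of these data known. Of the arrays within a group, 0 pairs were identical. Scripts were tested on simulated data.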

Additional observations from a re-analysis of the deposited data

Results flagged for a closer look

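Single arrays stood far from the rest of their group in 5 of 86 groups examined, about the share that chance gives (1 in 20). The tTA mouse4570 had 3.43 for Cfap97, against 4.82 to 5.25 in the other tTA mice. The rTg4510 mouse4549 had 4.93 for Ints5, against 5.82 to 6.00, and both genes were called in CA3. The rTg4510 mouse4535 had 5.95 on the brightest Mapt probe set, against 6.72 to 7.16, and 6.10 for Myl9, against 4.48 to 5.06. The tTA mouse4592 had 8.74 for Ptgds, against 7.67 to 7.92.

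The rTg4510 minus tTA difference itself differed between subfields for some named genes (limma interaction, adjusted p below 0.05), of which several were named for the size of this interaction. Over all probe sets 3.88% differed between CA3 and CA1 and 0.00884% between CA3 and DG. Against CA1 it was lower in CA3 for C4b (−2.32) and Gfap (−1.84 and −1.53), and for Gad2 by −1.03, Igf2 by −2.33, Ptgds by −2.27 and Myl9 by −2.27. It was of opposite direction for Nupr1 (−2.61), and more negative in CA3 for Tmem114 (−1.20) and Mycl (−0.91). It was higher in CA3 for Fam120b (1.27), Mapt (1.35), H3c15 (1.35), Pip5k1a (2.41) and Fgf14 (0.47, with −0.22 in CA3 and −0.68 in CA1). Against DG it was higher in CA3 for H3c15 (1.89) and Jun (1.20).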

How the results depend on the processing

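The count of 256 calls in CA3 became 25 with only the rTg4510 and tTA arrays, 150 with array weights, and 151 (log2) and 169 (anti-log) with the methods' t-test, which gave 3312 and 3255 before adjustment. Its other settings gave 236 to 366. Leaving out 1 array gave 88 (without rTg4510 mouse4535) to 451 (without rTg4510 mouse4621). The count also moved by over 1.5 times without rTg4510 mouse4600 (151), mouse4653 (161) and mouse4666 (108), tTA mouse4570 (103), mouse4580 (148) and mouse4592 (139), and DN mouse4825 (161) and mouse4883 (160). Of 31 named probe sets called in CA3, 0 changed direction under any setting, 8 stayed called with only the 2 genotypes, 21 with array weights, and 10 and 16 with the methods' t-test. Calls for CA3 against CA1 numbered 878 with the mouse as a random replicate block, 832 with it as a fixed replicate block and 526 without a block. They numbered 434 to 1226 when 1 rTg4510 or tTA mouse was left out with all its arrays. For CA3 against DG the 2 calls became 0 without the block, 1 with a fixed block, 0 after a second quantile normalization and 0 with array weights. They became 0 to 5 when 1 such mouse was left out, and 1828 probe sets had an unadjusted limma p below 0.05. Within CA3 each mouse gave 1 array, so no pairing applied there. The cause of these changes was not tested. Dim genes (52 of the called probe sets) have understated differences, and no detection calls were used.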
